A study of Mus musculus with 2 samples.

Results

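The 10 miRNA genes Mir770, Mir673, Mir493, Mir337, Mir540, Mir665, Mir431, Mir433, Mir127 and Mir434 lie in the Meg3 and anti-Rtl1 end of the imprinted Dlk1-Dio3 region on mouse chromosome 12. They were chosen by gene symbol, as 10 of the 1973 miRNA gene rows in the tables. The rule uses no measured value, although the set was proposed with earlier results of these data known. The tissue was the embryonic facial prominence of B6NCrl mice at embryonic day 12.5, which gives rise to the face and jaws. There were 2 small RNA libraries (RNA under 30 bases per the labels) of 1 group, labelled as biological replicates. Replicate 1 pooled tissue of 120 embryos and replicate 2 tissue of 88 embryos, with male and female embryos mixed. All embryos were described as healthy, and no treatment or mutant was part of the data analysed here. A difference between the libraries is thus a difference between pools, and any test on reads compares these libraries and not conditions.

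The Dlk1-Dio3 region is read differently from the chromosomes of the mother and the father. The protein-coding genes Dlk1, Rtl1 and Dio3 are expressed from the paternal copy, whereas the long noncoding RNAs Meg3, Rian and Mirg and the miRNAs along them come from the maternal copy. Rtl1 derives from a retrotransposon and is needed in the mouse placenta. The miRNAs made from its opposite strand pair with the Rtl1 transcript along their whole length and are known in the mouse to direct its cleavage.

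All 10 hairpins lay on the plus strand of GRCm38, the assembly that mm10 denotes, within 30.908 kb. Mir770 (109563692 to 109563785) lay in Meg3, in an exon of 1 and in an intron of 3 of the 4 Meg3 transcripts that span it. Mir673 (109571990 to 109572080) and Mir493 (109580233 to 109580315) followed downstream of Meg3, with no annotated host. Mir337 (109585789 to 109585885), Mir540 (109586080 to 109586146) and Mir665 (109586314 to 109586407) sat together in 619 bases, also with no annotated host. The last 4 genes, Mir431 (109590447 to 109590537), Mir433 (109591715 to 109591838), Mir127 (109592846 to 109592915) and Mir434 (109594506 to 109594599), spanned 4153 bases inside the coding exon of Rtl1, which runs on the minus strand. These 3 groups by position, drawn from the annotation after the tables had been opened, are called the Meg3-side genes, the Mir337 trio and the anti-Rtl1 genes. The last name covers genes of the set only. The row Mir432, outside the set, lies past Mir434 on the plus strand, also inside Rtl1. It had 0 reads on either strand in both libraries.

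The mature strands of the 4 anti-Rtl1 genes are shown because they are complementary to the coding sequence of Rtl1, the gene that they face. Capitals mark the seed, bases 2 to 8, which leads the pairing of a miRNA with its targets (RefSeq, GRCm38.p6).
miR-431-5p: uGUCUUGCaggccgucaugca
miR-431-3p: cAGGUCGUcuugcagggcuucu
miR-433-5p: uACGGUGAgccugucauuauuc
miR-433-3p: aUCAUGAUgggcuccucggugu
miR-127-5p: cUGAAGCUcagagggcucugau
miR-127-3p: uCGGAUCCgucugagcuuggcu
miR-434-5p: gCUCGACUcaugguuugaacca
miR-434-3p: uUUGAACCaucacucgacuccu

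Each of these 8 strands had a full complement in the Rtl1 transcript, inside its coding sequence, which follows from the place of the hairpins opposite that exon. A search of the transcripts of 21877 protein-coding genes (GENCODE M21) found a full complement of a strand in Rtl1 alone. None of the 12 strands of the other 6 genes had a full complement in any of them. The sites of 2 strands in Rtl1 are shown, one for each of the most abundant genes, with the bases that face the seed in capitals. The site of miR-127-3p began at base 2642 of the Rtl1 transcript and that of miR-431-5p at base 5072.
Rtl1 site of miR-127-3p: agccaagctcagacGGATCCGa
Rtl1 site of miR-431-5p: tgcatgacggcctGCAAGACa

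All 10 genes were found in the RefSeq miRNA table, with 20 mature strands of 19 to 26 bases and 20 different seeds, so no seed was shared within the set. For 18 of the 20 strands (90.0%) no other mature miRNA of the table had the seed, against 72.1% of all 1679 mature miRNAs. The exceptions are shown because a target site for them could also be read by another miRNA. The seed of miR-673-5p was also that of miR-6985-3p, and the seed of miR-540-3p that of miR-6915-5p.
miR-673-5p: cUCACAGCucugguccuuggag
miR-540-3p: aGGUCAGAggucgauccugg

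The hairpins were 67 bases (Mir540) to 124 bases (Mir433) long, with a GC content of 45.7% (Mir434) to 70.2% (Mir770). None of them shared an exact stretch of 20 bases with a miRNA gene at another place. Exact reads of 20 bases or more were thus not open to being set aside for a copy among the listed genes. Shorter reads, and reads aligned with mismatches, were not checked. The Mir434 hairpin held the motif GGUUUGAACCA in 3 copies, beginning at its bases 10, 34 and 58. This was the longest stretch found 3 times in the hairpin, a search chosen after the sequence was seen. Of 1005 hairpins in the table, Mir434 alone held it or its reverse complement (0.0995%). The motif was taken from the Mir434 hairpin, so this share describes it and is no test of a special trait. The hairpin is shown with the motif in capitals, which miR-434-5p ends with and miR-434-3p begins inside.
Mir434 hairpin: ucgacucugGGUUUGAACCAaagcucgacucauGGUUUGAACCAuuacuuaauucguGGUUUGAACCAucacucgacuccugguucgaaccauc

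The libraries held 11414919 and 12792420 reads in replicates 1 and 2, and 4719337 and 5929220 of these were counted on the own strand of a listed miRNA gene. A level is given as CPM, own-strand counts divided by those gene counts and scaled to 1000000. A read covers a mature strand and not the hairpin, so CPM were not divided by length, and how evenly the library preparation captures different miRNAs was not tested. Of the markers listed for the tissue, 6 of 6 genes of mesenchyme and cartilage (64669 and 64166 summed CPM in replicates 1 and 2) and 7 of 7 of epithelium (30805 and 35800 CPM) had at least 10 counts in both libraries. Neural markers reached 1348 and 1268 summed CPM with 6 of 10 measured genes detected, and Mir124a-1 and Mir9-2 had 0 counts, although 7 of the 10 shared sequence with copies and may be undercounted. Striated muscle markers reached 1176 and 1550 summed CPM, with 4 of 7 detected and 4 of 7 sharing sequence, as did 3 of the 6 mesenchyme and cartilage genes. The endothelial marker Mir126a had 29030 and 27230 CPM, erythroid markers 223 and 331 summed CPM (3 of 3 detected), leukocyte markers 435 and 444 (3 of 3) and the liver marker Mir122 13.8 and 13.5 CPM. The part of any cell type in the levels below was not tested, and in whole tissue more cells of a type and more RNA per cell cannot be told apart.

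All 10 genes were detected, that is, had at least 10 own-strand counts in both libraries, against 395 of all 1973 rows (20.02%). Together they held 106938 counts in replicate 1 (2.27%, exact Clopper-Pearson 95% interval 2.25 to 2.28) and 125660 in replicate 2 (2.12%, interval 2.11 to 2.13), with a mean of 2.19% ± 0.104 (SD, n = 2). The intervals cover counting error only. Every one of the 10 stood above the median of the detected genes, 122 CPM, and their own median was 1035 CPM. They ranged from 162 to 8076 CPM, a 50.0-fold span within a stretch of about 30.908 kb.

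The anti-Rtl1 genes held 82.1% of the counts of the 10 genes in replicate 1 and 81.6% in replicate 2. Mir127, the best studied of them and a known regulator of Rtl1 in mouse placenta, had 8439 CPM in replicate 1 and 7714 CPM in replicate 2 (mean 8076 ± 513, SD, n = 2). It was the highest of the 10 and the gene of rank 30 among all detected genes. Mir431, which in the mouse is known from regenerating axons and muscle, had 7830 CPM and 7123 CPM (mean 7477 ± 499) and ranked 34. Both exceeded the remaining 8 genes of the set in both libraries, and together they held 71.8% and 70.0% of its counts in replicates 1 and 2.

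Mir433 and Mir434 lie in the same stretch and were far lower. Mir433, which restrains bone cell differentiation in mouse cells by targeting Runx2, had 1382 CPM in replicate 1 and 1295 CPM in replicate 2 (mean 1338 ± 61.3). Mir434, known in mouse muscle, had 945 CPM in replicate 1 and 1168 CPM in replicate 2 (mean 1056 ± 158). Mir434 was the only anti-Rtl1 gene with the higher value in replicate 2. The Mir433 level was 1.46 times that of Mir434 in replicate 1 and 1.11 times in replicate 2.

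**Figure D1:**
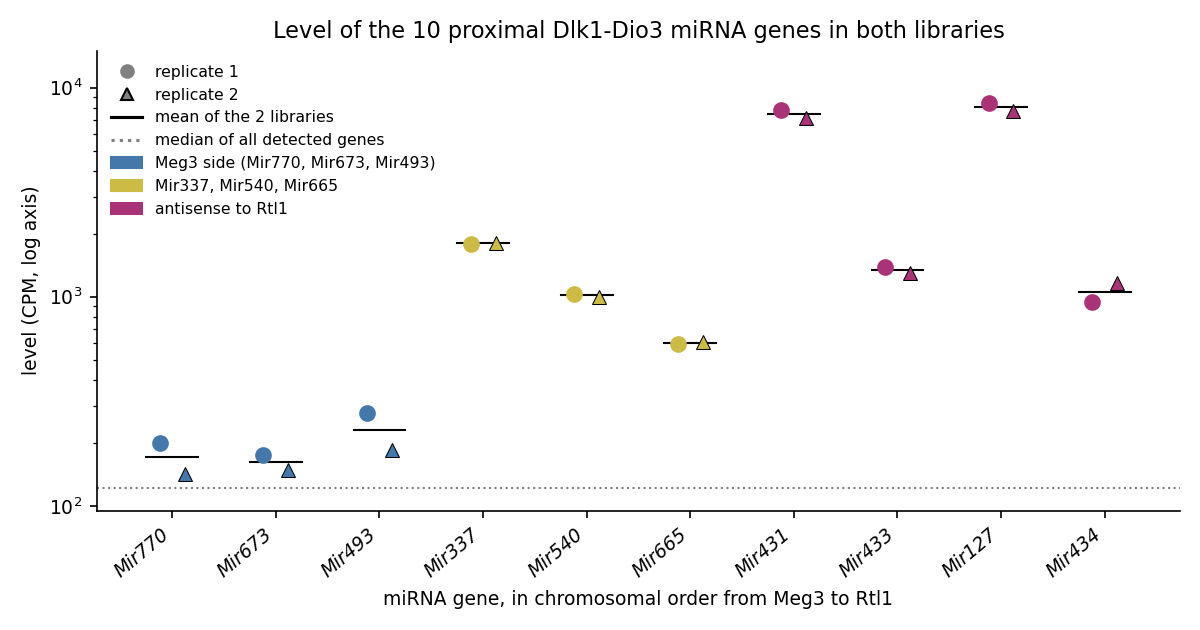
Level of each of the 10 genes in CPM on a log axis, in chromosomal order from Meg3 to Rtl1, with replicate 1 as circles, replicate 2 as triangles, the mean as a bar, colours for the groups by position and a dotted line at the median of all detected genes. Mir127 and Mir431 stand at 7123 to 8439 CPM, Mir770, Mir673 and Mir493 between 142 and 277 CPM, and all points lie above the dotted line at 122 CPM.

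The Mir337 trio lay within 619 bases and of the 3 groups its levels were the most alike between the pools. Mir337 had 1795 CPM in replicate 1 and 1808 CPM in replicate 2 (mean 1801 ± 9.64). Mir540 had 1026 CPM and 1002 CPM (mean 1014 ± 17.3). Mir665, which targets the homeobox gene Dlx3 in mouse tooth-forming cells, had 593 CPM and 606 CPM (mean 599 ± 9.65). The level stepped down from Mir337 to Mir540 to Mir665 in both libraries, in the order in which they lie on the strand. The trio held 15.1% and 16.1% of the counts of the 10 genes in replicates 1 and 2.

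The Meg3-side genes were the lowest 3 of the set. Mir493 had 277 CPM in replicate 1 and 186 CPM in replicate 2 (mean 232 ± 64.6). Mir770, the gene inside Meg3, had 199 CPM and 142 CPM (mean 171 ± 40.4). Mir673 had 174 CPM and 149 CPM (mean 162 ± 18.1). All of these were lower in replicate 2, and the 3 genes held 2.87% of the counts of the set in replicate 1 and 2.25% in replicate 2. The rows nearest in level were Mir342 (8686 CPM) and Mir130b (7978 CPM), directly above and below Mir127, and Mir3102 (161.8 CPM) and Mir221 (160.5 CPM), directly above and below Mir673. With 2 libraries of 1 group, a likeness of pattern across conditions could not be measured.

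**Figure D2:**
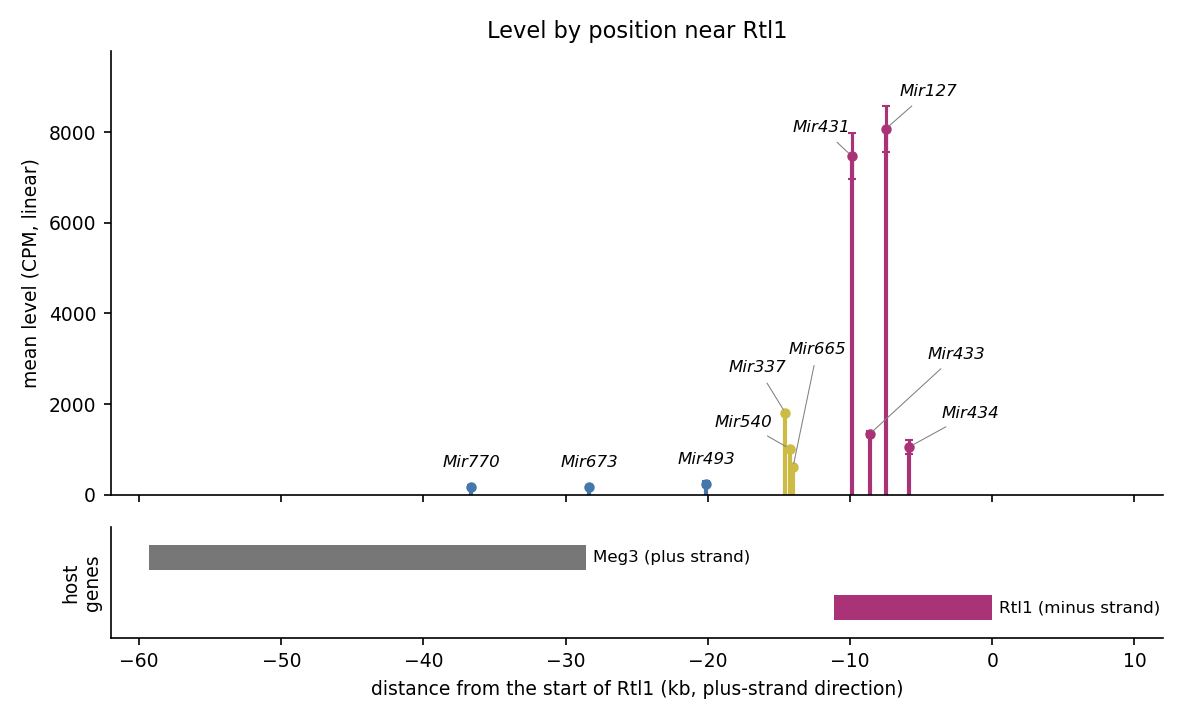
Mean level of the 10 genes in CPM on a linear axis (error bars, SD of the 2 libraries) against the distance from the start of Rtl1 in kb along the plus strand, with the extents of Meg3 and Rtl1 drawn beneath. The stems inside Rtl1 reach 8076 CPM (Mir127) and 7477 CPM (Mir431), whereas the stem inside Meg3 reaches 171 CPM (Mir770).

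From highest to lowest mean, the order was Mir127, Mir431, Mir337, Mir433, Mir434, Mir540, Mir665, Mir493, Mir770 and Mir673. Of the 45 pairs of genes, 43 had the same order in both libraries. The pairs that changed order were Mir434 with Mir540 and Mir770 with Mir673, so neither pair differed beyond its spread. Of the 9 pairs of neighbours in the order, 6 had the same order in both libraries and means further apart than the larger SD. Mir493 and Mir770 kept their order, but their means differed by 60.9 CPM, less than the larger SD of 64.6. The values of Mir127 and Mir431 overlapped between libraries, since Mir431 in replicate 1 (7830 CPM) exceeded Mir127 in replicate 2 (7714 CPM), although Mir127 was higher within each library. With n = 2 these limits are weak.

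Within the whole Dlk1-Dio3 region the 10 genes were set beside the 49 other miRNA gene rows that lie between Dlk1 and Dio3. The 10 genes held 28.95% of the counts of the region in replicate 1 and 28.91% in replicate 2, while the region's share of all gene counts was 7.83% and 7.33%. Among the other rows 37 were detected, with a median of 230 CPM, and 8 of the 10 genes stood above that median. One of the 8, Mir493, was barely above it, with a mean of 231.5 CPM beside 230.2 CPM. Its replicate 2 value of 186 CPM was below. By own-strand counts the highest other rows were Mir487b (9216 ± 49.6 CPM) and Mir411 (9168 ± 814 CPM), both above Mir127. Next came Mir369 (5558 ± 1242 CPM), below Mir431. Mir411 shared sequence with Mir758 and may be undercounted. These values describe the 2 libraries, and the difference between the sets was not tested. The share rests on how strands were assigned. In some rows of the rest of the region the reads fell on the strand opposite to the annotated one. One of them was Gm24321, with 0 own-strand reads but 45795 and 50707 opposite-strand reads in replicates 1 and 2. The ranking by own-strand counts leaves it out. With both strands counted the 10 genes held 24.2% of the region. Between the first and the last of the 10 genes lay 2 further rows, Mir3070a (3.18 and 3.20 CPM in replicates 1 and 2) and Mir3070b (0.212 and 0.675 CPM), which shared sequence with each other and may be undercounted.

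**Figure D3:**
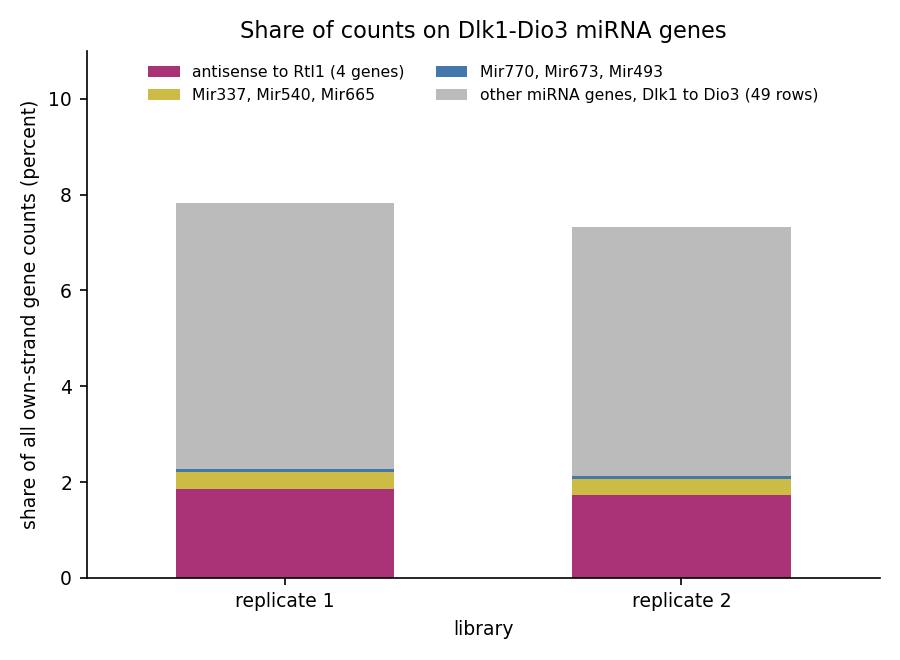
Share of all own-strand gene counts, in percent, held by miRNA genes between Dlk1 and Dio3 in each library, stacked by the groups by position and the 49 other rows. The region holds 7.83% in replicate 1 and 7.33% in replicate 2, of which the anti-Rtl1 genes make up 1.86% and 1.73%.

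Between the pools, 0 of the 10 genes differed at least 2-fold with an exact binomial adjusted p below 0.05, a rule that called 4.05% of the 395 detected genes. Without the limit on size, 7 of the 10 differed beyond counting error, against 51.9% of all detected genes. Of these 6 were higher in replicate 1, where the background was 24.8%, and 1 was lower in replicate 1, where it was 27.1%. Over all detected genes the common biological coefficient of variation between the libraries was 0.190. With it fixed at 0.2 in edgeR's exact test, 0 of the 10 passed, and also 0 at an unadjusted p below 0.05, against 0.506% and 5.06% of detected genes. That coefficient is close to the one estimated from these same libraries, so the test allows for the very spread it measures and few genes could pass.

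The differences are given by the groups by position. The log2 ratio of replicate 1 over replicate 2 was 0.58 for Mir493 (95% interval 0.46 to 0.70, exact binomial adjusted p = 2.58e-22), 0.49 for Mir770 (0.36 to 0.63) and 0.23 for Mir673 (0.10 to 0.37). It was -0.01 for Mir337 (-0.05 to 0.04), 0.04 for Mir540 (-0.02 to 0.09) and -0.03 for Mir665 (-0.10 to 0.04), and all intervals of the trio included 0. Among the anti-Rtl1 genes, Mir431 (0.14), Mir127 (0.13) and Mir433 (0.10) were close to each other, and Mir434 stood at -0.30 (-0.36 to -0.25, exact binomial adjusted p = 5.96e-27). The groups were not tested against each other.

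The median log2 ratio of the 10 genes was 0.12, beside 0.00 over all detected genes and 0.06 over the 37 other detected rows of the region. In absolute size, their median was 0.14 and that of all detected genes 0.23. All 10 lay between the 5th and the 95th percentile of the detected genes, at -0.51 and 0.88. Precision was set by the counts, from 823 (Mir673, replicate 1) to 45738 (Mir127, replicate 2).

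**Figure D4:**
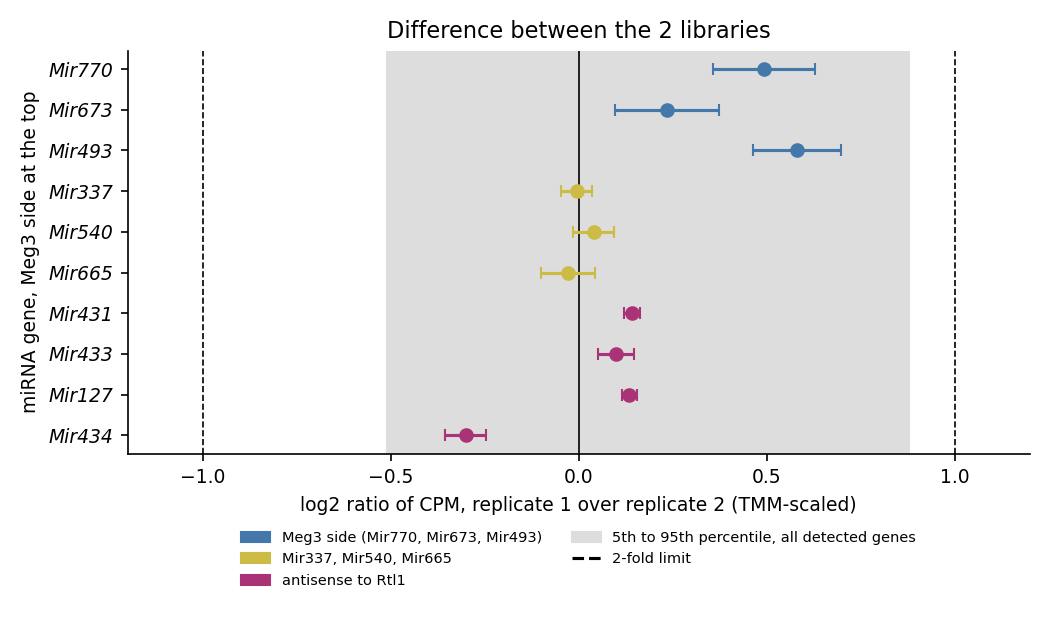
Log2 ratio of each gene, replicate 1 over replicate 2 after TMM scaling, with exact 95% intervals that cover counting error only. The grey band runs from the 5th to the 95th percentile of all detected genes (-0.51 to 0.88), the dashed lines mark the 2-fold limit, and all 10 points lie inside the band.

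Almost every read at the 10 genes lay on the gene's own strand, including at the 4 genes that face Rtl1. Mir431 had 0 opposite-strand reads beside 36951 and 42236 own-strand reads in replicates 1 and 2, and Mir127 had 0 beside 39826 and 45738. The exact interval of their opposite-strand share ended at 0.00998% or below in either library. Mir433 had 0 and 1 such reads and Mir434 had 1 and 0, while 7 of the 10 genes had none in either library. Summed over the 10 genes, opposite-strand reads made up 0.0383% in replicate 1 and 0.0398% in replicate 2, against 0.19997% and 0.20414% over all detected genes. Most of that background lay at a single row, Mir299b, with 8801 and 11310 opposite-strand reads beside 19 and 23 own-strand reads. The summed share of the 10 genes can therefore not be read as low against it. Most detected genes had reads on their own strand only, since 340 of 395 (86.1%) had 0 opposite-strand reads in both libraries. Over all gene rows the opposite-strand share was 3.24% and 3.29%. Of those reads, 94.0% in each library lay at rows that were not detected on their own strand. No listed row lay opposite any of the 10 genes. Small RNA from the Rtl1 strand was thus at or under 1 read per library at each of the 4 anti-Rtl1 hairpins. This may not hold for all of Rtl1. The row Mir3071, past Mir434 but still inside Rtl1, lies on the Rtl1 strand by GENCODE M21. It had 971 and 1415 own-strand reads in replicates 1 and 2. The reads were counted over GENCODE M4, and whether that version gave the row the same strand was not checked.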

How the data were processed

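Small RNA was sequenced from 2 libraries of 1 group. The authors deposited raw read counts per miRNA gene for each library, aligned to mm10 and counted over GENCODE M4 per the file descriptions deposited with them; the aligner, counter and trimming are not given in the sources used here. Counts came for both strands together and for each alone. The column with 96.8% and 96.7% of gene reads in replicates 1 and 2 was taken as the own strand. Reads that were unmapped (25.7% and 19.4%), mapped to several places (26.0% and 27.9%) or lay outside the listed genes on that strand (6.95% and 6.30%) stayed out of library sizes. Reads carried no molecular identifiers used here.

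Symbols came from GENCODE M21 on GRCm38, which named 1894 of 1973 rows. Libraries were scaled with edgeR 4.0.16 (TMM, factors 0.998 and 1.002, R 4.3.3) and, as an alternative, DESeq2 1.42.0. A single library on each side leaves edgeR's quasi-likelihood test no residual degrees of freedom. The two-sided exact binomial test against TMM library sizes was thus used (scipy 1.17.1), with Benjamini-Hochberg adjustment over 395 detected genes. It was checked on counts simulated with counting error only, without the spread between pools (coefficient of variation 0.190). The check therefore does not show how the test behaves with that spread. All 10 genes are named, with the 3 highest other rows of the region, rows between the members, and the rows nearest in level to the highest and lowest member. Mir299b, Mir3071 and Gm24321 are also named for the strand of their reads, Mir758 for shared sequence and Mir432 for its place inside Rtl1. These were picked after the counts had been seen. The rule for the members uses symbols only, but the members, lists and tests were chosen with earlier results of these data known.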

Additional observations from a re-analysis of the deposited data

Results flagged for a closer look

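Mir337 was the only gene of the 10 with more than 3 reads on the opposite strand in both libraries, a signal in a column that the levels do not use. It had 40 such reads beside 8469 on its own strand in replicate 1 and 49 beside 10721 in replicate 2. Their share was 0.470% in replicate 1 (exact interval 0.336 to 0.640) and 0.455% in replicate 2 (0.337 to 0.601), with a mean of 0.463%. Of all opposite-strand reads at the 10 genes, Mir337 held 97.6% in replicate 1 and 98.0% in replicate 2. Among all detected genes, 9 (2.28%) had more than 3 such reads in both libraries.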

How the results depend on the processing

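All 10 genes stayed detected with no count minimum, with at least 100 counts and with both strands. The 10 genes held 0.960% of all reads, unmapped and multimapped ones included, and 2.43% of gene counts without genes that share sequence. Their share of the Dlk1-Dio3 rows was 24.2% with both strands and 32.9% without genes that share sequence. Leaving out replicate 1 or replicate 2 gave shares of gene counts of 2.12% to 2.27%, shares of the region of 28.91% to 28.95% and opposite-strand shares of 0.0383% to 0.0398%. With no limit on size, 7 in place of 0 genes differed between the libraries, and 0 did with DESeq2 size factors, scaling by the gene sum, both strands, other count minimums or a coefficient of variation fixed at 0.2, which is close to that of these libraries. The log2 ratio of Mir337 was 0.0056 with both strands in place of -0.0057, and the other ratios kept their sign. The levels of 10 genes moved by more than 1 SD when scaled to all reads, and those of 3 (the Mir337 trio) with both strands, while with TMM sizes all 10 moved by less. Leaving out 1 of 2 libraries moves a mean by a fixed part of its SD, so it shows nothing of stability. No paired analysis was possible because there was 1 group. Depth limits Mir673, Mir770 and Mir493 most, at 823 to 1308 counts.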
